A study of Mus musculus with 12 samples.

Results

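The PPT response difference between wild type and MOER mouse liver is a contrast of 4 groups of arrays: the change that PPT gave over oil in wild type livers, minus the change that PPT gave over oil in MOER livers. PPT is a synthetic agonist selective for oestrogen receptor alpha, and the labels describe MOER mice as having this receptor at the cell membrane alone. The contrast was taken for every probe set whose intensity lay over the 40th percentile of the array on at least 2 arrays out of 12, which left 19119 of 28815 probe sets. Of these, 15226 carried 1 gene symbol, for 13987 genes. Each value is a log2 difference of intensities to which 16 had been added. It is signed wild type minus MOER, so that a positive value means that PPT moved the transcript further up, or less far down, in wild type than in MOER. A probe set was called where limma's moderated test gave a Benjamini-Hochberg adjusted p under 0.05.

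The MOER PPT, MOER oil, wild type PPT and wild type oil groups had 2 arrays each, 8 in all, and 2 ERKO PPT and 2 ERKO oil arrays (mice without oestrogen receptor alpha) entered the same fit. All mice were ovariectomised at 3 months of age, carried the label C57BL/6 and were left 1 week to recover. They then received 100 µg of PPT or 0.1 mL of oil daily by intraperitoneal injection for 3 days. An array received the pooled whole-liver RNA of 3 mice, and the study was run a second time. Whether both arrays of a group stem from different mice is not shown by the labels, and a p-value here covers the spread among these arrays alone. In whole liver, fewer cells of a type and less RNA per cell cannot be told apart.

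Oestrogen receptor alpha is known both as a ligand-activated transcription factor in the nucleus and as a receptor that, attached to the inner face of the cell membrane, starts kinase signalling within minutes. In liver, oestrogen is known to act on bile acid, cholesterol and triglyceride metabolism, on growth hormone signalling with its sex-biased target genes, and on secreted plasma proteins. The difference between the wild type and MOER responses addresses which transcripts responded to the agonist in a different way where the full receptor was present.

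Esr1, the gene of oestrogen receptor alpha, had intensities of 117 and 131 in MOER PPT, 126 and 128 in MOER oil, 309 and 325 in wild type PPT and 347 and 365 in wild type oil arrays. MOER was thus below wild type under either treatment, and the difference of responses was -0.13 ± 0.13 (standard error, as for all log2 values below; limma, adjusted p = 0.575). The hepatocyte transcript Alb, for albumin, lay between 19515 and 21848 in these 8 arrays. Array medians lay between 77.5 and 85.26, and arrays of the same group had correlations of 0.994 to 0.996 across probe sets, except in ERKO oil (0.981). The 16 measured transcripts of pancreatic acinar cells, a cell type that whole liver should lack, summed to 897 to 943 in MOER PPT, 41793 to 52147 in MOER oil, 765 to 850 in wild type PPT and 623 to 747 in wild type oil arrays. Acinar transcripts were thus bright in both MOER oil arrays alone, which gives them a positive difference.

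The responses differed for 4124 probe sets, 21.6% of those tested. The difference was positive for 2007 (10.5%) and negative for 2117 (11.1%), it reached 2-fold for 1354, and its median over all 19119 was 0.01. PPT changed 5921 probe sets in wild type (31.0%) and 890 in MOER (4.66%), against 3430 in ERKO (17.9%). Of the 4124, 3265 (79.2%) were called in the wild type response alone. A further 136 were called in both responses in the same direction with the larger change in wild type, 276 in opposite directions, 162 in MOER alone and 36 in both with the larger change in MOER. The remaining 249 were called in neither response. Without ERKO oil replicate 2, an omission chosen after seeing that it stood apart from its partner, the counts were 5607 in all, 262 larger in wild type, 572 opposite and 289 in MOER alone. Leaving out 1 of the 8 wild type and MOER arrays gave 62 to 93 probe sets larger in wild type, 119 to 167 opposite, 95 to 165 in MOER alone and 18 to 31 larger in MOER. The lowest counts came without MOER PPT replicate 1, MOER oil replicate 1, MOER PPT replicate 2 and wild type oil replicate 1, in that order.

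**Figure D1:**
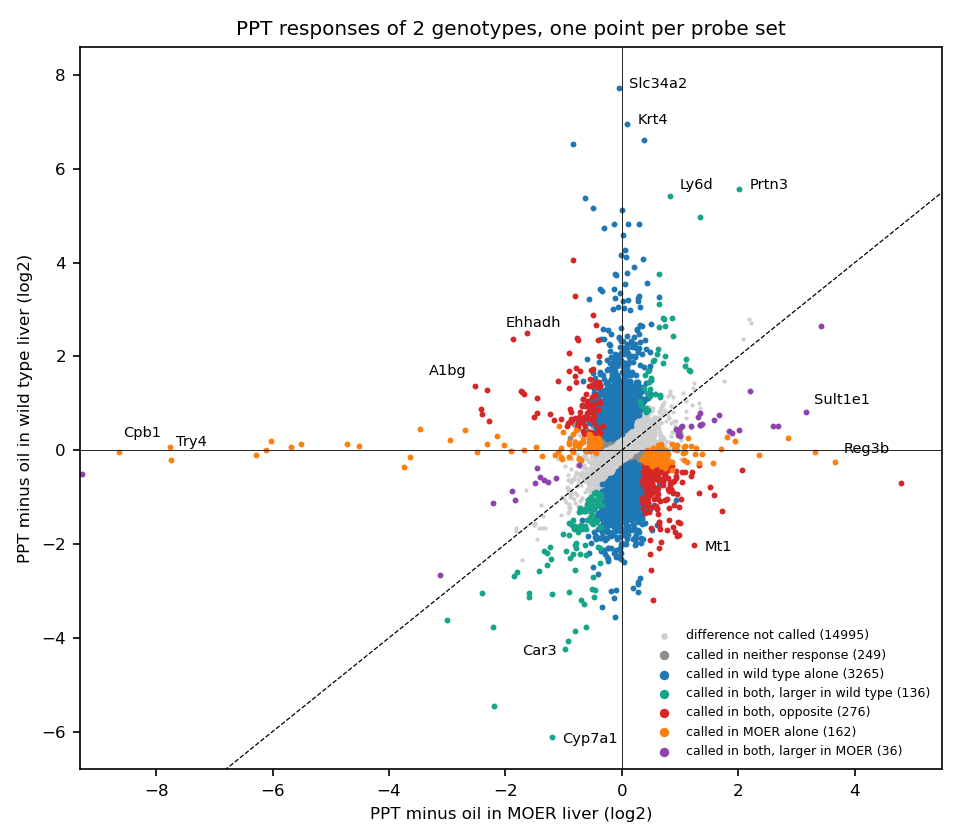
Each point is a probe set, with the log2 change of PPT over oil in MOER liver on the horizontal axis and in wild type liver on the vertical axis (n = 2 arrays per group). Colours mark the class of the 4124 probe sets whose responses differed, and the dashed line marks equal responses. The 3265 points called in wild type alone stand along the vertical axis, and the acinar transcripts such as Cpb1 and Try4 lie far to the left at no change in wild type.

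Among the 1128 probe sets that PPT changed by at least 2-fold in wild type, 1052 (93.3%) differed from MOER. Their median change along the wild type direction was 1.34 in wild type and 0.05 in MOER, against 0.16 in ERKO. In MOER 177 of the 1128 were called in the same direction, 53 of them at 2-fold or more, and 88 in the opposite direction. Of the 169 probe sets called at 2-fold or more in MOER, 134 (79.3%) differed from wild type, where 82 were called in the same direction and 32 in the opposite one. Of the 4124 probe sets, 1281 (31.1%) were called in the ERKO response, against 17.9% of all those tested. Among the 3265 called in wild type but not in MOER, 953 (29.2%) were called in ERKO, 723 of them in the wild type direction. Of the 1626 with a negative difference, 573 were called in ERKO, 485 in the wild type direction. For the 1639 with a positive one these counts were 380 and 238.

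The genotypes were further apart after PPT than under oil. MOER minus wild type was called for 6794 probe sets under PPT (35.5%) and for 1082 under oil (5.66%). Among the 4124 probe sets with different responses, the gap between the genotypes was larger under PPT for 3540 (85.8%) and larger under oil for 584. The gap was called under PPT alone for 3224, under oil alone for 197, under both for 416 and under neither for 287. The contrast is the same number as the oil gap minus the PPT gap, so these counts describe where the difference lies and do not test it. The 584 included the acinar transcripts, for which the MOER oil arrays alone were high.

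**Figure D2:**
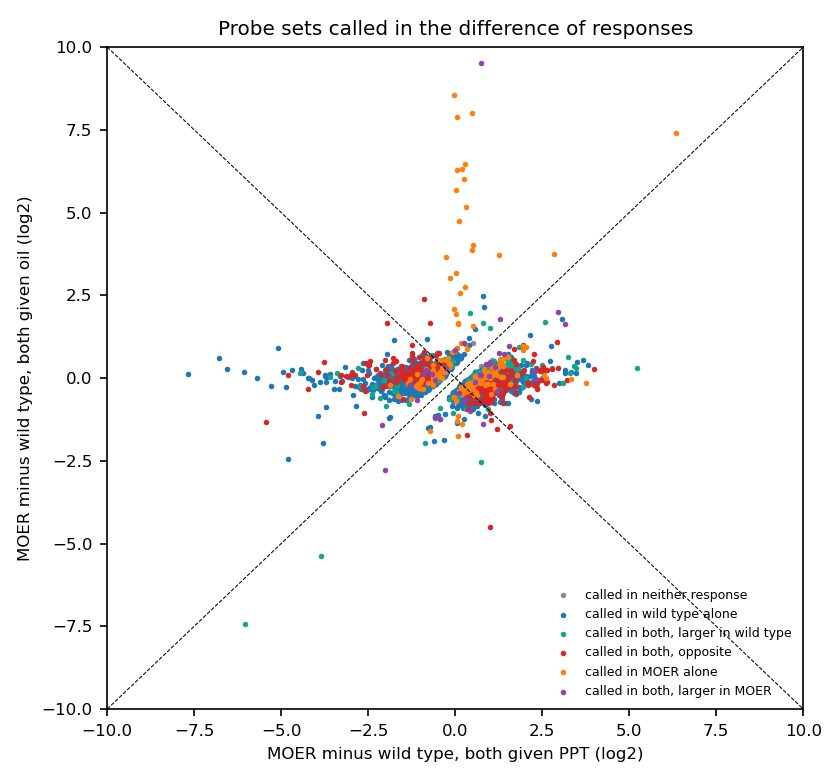
Each point is 1 of the 4124 probe sets, with the log2 difference MOER minus wild type under PPT on the horizontal axis and under oil on the vertical axis. Dashed lines mark gaps of equal size, so the 3540 points left and right of the crossing lines had the larger gap under PPT. The points high up and near no gap under PPT include the acinar transcripts of the MOER oil arrays.

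Transcripts that PPT raised in wild type alone included several that were near the floor in the other 3 groups. Slc34a2, a sodium-dependent phosphate transporter, had intensities of 19.9 and 32.9 in MOER PPT, 22.8 and 32.95 in MOER oil, 8669 and 8332 in wild type PPT and 22.8 and 25.9 in wild type oil arrays. The wild type PPT pair alone was bright. A group was taken as dim where each of its arrays read below that array's 40th percentile (53.576 to 60.98), and a change against a dim group is given as a lower bound. For Slc34a2 the rise in wild type was at least 158-fold and the MOER PPT arrays stood at least 140-fold below the wild type PPT arrays (limma, adjusted p of the difference = 9.66e-09). Krt4, a keratin of stratified epithelia, rose at least 60.5-fold in wild type to 3308 and 3210.1, and 2210407C18Rik at least 52.2-fold. Krt4 was also bright in ERKO PPT arrays, at 451 and 435. Of the 10 measured squamous epithelium transcripts, Krt4 and Lgals7 alone had a called difference, and the 10 summed to intensities of 398 to 442 in MOER PPT, 405 to 458 in MOER oil, 3597 to 3737 in wild type PPT and 316 to 379 in wild type oil arrays. Krt4 alone made up most of the wild type PPT sum, and 3 of the 10 were over the 40th percentile in both wild type PPT arrays.

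Akr1c18, a hydroxysteroid dehydrogenase that inactivates progesterone, gave 47.1 and 55.3 in MOER PPT, 82.2 and 76.2 in MOER oil, 3629 and 3236 in wild type PPT and 82.6 and 76.96 in wild type oil arrays. Mad2l1, a protein of the mitotic spindle checkpoint, gave 155 and 182 in MOER PPT, 178 and 154 in MOER oil, 5469.9 and 5148 in wild type PPT and 220.5 and 190.2 in wild type oil arrays. For each of these genes the wild type PPT pair lay far above the 6 arrays of the other groups, which spanned less than 2-fold. The MOER PPT pair of Akr1c18 was dim. The difference was 4.57 ± 0.18 for Mad2l1 (limma, adjusted p = 5.81e-08). The same shape was seen for Psen2, a catalytic subunit of gamma-secretase, which reached 13747 and 12942 in wild type PPT arrays and lay between 987 and 1325 in the other 6. Gng12, a G protein gamma subunit, reached 7024 and 6737, against 836 and 828 in wild type oil arrays, and Itpk1, an inositol phosphate kinase, 1469.8 and 1578 against 149.9 and 142. Ptgds, a prostaglandin synthase, had a difference of 3.87 ± 0.14, and Trex2, a DNA exonuclease, one of 5.12 ± 0.18.

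PPT lowered 1626 of the called probe sets in wild type alone. Among those of largest difference, Nat8f1, an N-acetyltransferase family member, gave 2166 and 1938 in MOER PPT, 2266 and 2179 in MOER oil, 120.2 and 140.5 in wild type PPT and 1703 and 1694 in wild type oil arrays. Serpina6, the plasma carrier of glucocorticoids, gave 3988 and 4087 in MOER PPT, 5292 and 4978 in MOER oil, 465 and 417 in wild type PPT and 4548 and 4648 in wild type oil arrays. In both genes the wild type PPT pair alone was low, with differences of -3.44 ± 0.15 and -2.99 ± 0.13 (limma, adjusted p = 1.67e-07 for either). Serpina6 was called in the ERKO response as well, at -1.45. Nox4, a hydrogen peroxide-producing NADPH oxidase, fell at least 7.43-fold in wild type, to 39.2 and 42.2, and Slc22a7, an organic anion transporter, at least 4.54-fold. Cyp4f15, a cytochrome P450, differed by -3.11, Rnf125, a ubiquitin ligase, by -2.82, Slc38a3, a glutamine transporter, by -2.06, and Cyp2c23, an arachidonic acid epoxygenase, by -2.02.

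A smaller class changed in the same direction in both genotypes and further in wild type. Cyp7a1, whose enzyme sets the rate of bile acid synthesis, gave 1336 and 1439 in MOER PPT, 3287 and 3123 in MOER oil, 20.8 and 22.6 in wild type PPT and 2623 and 2554 in wild type oil arrays. It fell by 1.20 on the log2 scale in MOER and at least 46.3-fold in wild type, where both PPT arrays were dim (limma, adjusted p of the difference = 5.26e-09). Car3, a carbonic anhydrase of hepatocytes and fat cells, gave 6474 and 6512 in MOER PPT, 12267 and 12491 in MOER oil, 642 and 646 in wild type PPT and 10829 and 11239 in wild type oil arrays. Its log2 change was -0.93 in MOER and -4.07 in wild type, and the pairs did not overlap within either genotype. Cyp2b10, a drug-metabolising cytochrome P450, changed by -0.61 in MOER and -3.78 in wild type. Serpinb1a, a protease inhibitor, changed by -0.48 and -3.12, and Hsd17b6, a steroid and retinol dehydrogenase, by -0.50 and -2.71, in the same order. The wild type PPT arrays of Hsd3b2, a steroid dehydrogenase, differed between themselves, at 97.5 and 49.4, against 1221 and 1229.9 in wild type oil arrays.

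Of transcripts raised in both genotypes, Ly6d, a membrane-anchored surface protein, reached 1010.3 and 944 in MOER PPT, against 609.8 and 489.7 in MOER oil arrays, and 21658 and 21989.8 in wild type PPT, against 523 and 458 in wild type oil arrays. Apoa4, an apolipoprotein, reached 1317 and 1241 in MOER PPT, against 796 and 831 in MOER oil arrays, and 8834 and 8347 in wild type PPT, against 959 and 984 in wild type oil arrays. The wild type rise was the larger for each, with differences of 4.61 ± 0.23 and 2.48 ± 0.14. Fabp5, a fatty acid-binding protein, differed by 2.10, Kcnt2, a sodium-activated potassium channel, by 3.11, and Prtn3, a protease of neutrophil granules, by 3.55. The Prtn3 pairs were 356 and 301 in MOER PPT, 80.1 and 58.6 in MOER oil, 3634 and 3575 in wild type PPT and 66.7 and 54.7 in wild type oil arrays. The MOER PPT pair thus lay above both oil groups, and the wild type PPT pair far above all 3 groups.

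The 276 probe sets called in opposite directions held some of the clearest single contrasts. Tfrc, the transferrin receptor, gave 313 and 364 in MOER PPT, 1756 and 1743 in MOER oil, 1385 and 1335 in wild type PPT and 540.2 and 555 in wild type oil arrays. It fell in MOER and rose in wild type, and the MOER oil pair was the highest of the 4 (difference 3.61 ± 0.13, limma, adjusted p = 4.76e-08). Ehhadh, an enzyme of peroxisomal fatty acid oxidation, gave 1030.5 and 1018 in MOER PPT, 1812 and 1718 in MOER oil, 10702 and 9702 in wild type PPT and 1934 and 1889 in wild type oil arrays. Lifr, the receptor of leukaemia inhibitory factor, gave 1305 and 1436 in MOER PPT, 1871 and 1859 in MOER oil, 11507 and 11361 in wild type PPT and 1774 and 1794 in wild type oil arrays. For Ehhadh and Lifr the oil pairs of the genotypes were close and the PPT pairs lay on opposite sides of them. Differences were 3.18 ± 0.13 for Ehhadh and 3.11 ± 0.12 for Lifr.

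Serpina12, which encodes the adipokine vaspin, fell at least 3.32-fold in MOER and rose to 807 and 767 in wild type PPT, against 137 and 141 in wild type oil arrays. A1bg, a plasma glycoprotein of female-biased expression in mouse liver, gave 115 and 148 in MOER PPT, 852 and 802 in MOER oil, 2712 and 2762 in wild type PPT and 1058 and 1026 in wild type oil arrays. The difference was 3.90 ± 0.18 for A1bg, 4.12 ± 0.35 for Eci3, a peroxisomal enoyl-CoA isomerase, and 3.37 ± 0.16 for Pik3c2g, a lipid kinase. Thrsp, a nuclear protein induced with lipogenesis, gave 1829.9 and 1688 in MOER PPT, 3715 and 3789 in MOER oil, 7299.5 and 7048 in wild type PPT and 2563 and 2607 in wild type oil arrays.

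In the other direction, Mt1, a metal-binding metallothionein, gave 8073 and 8066 in MOER PPT, 3436 and 3371 in MOER oil, 865 and 846 in wild type PPT and 3451 and 3611 in wild type oil arrays. Cyp3a13, a steroid and drug hydroxylase, gave 3427 and 3729 in MOER PPT, 1135 and 1017 in MOER oil, 1187 and 1199.98 in wild type PPT and 2979 and 2932 in wild type oil arrays. Both rose in MOER and fell in wild type, but the oil pairs of Mt1 were close whereas the MOER oil arrays of Cyp3a13 were already below wild type oil. Differences were -3.27 ± 0.13 (limma, adjusted p = 7.8e-08) and -3.02 ± 0.13 (adjusted p = 1.44e-07). Raet1d, a ligand of a natural killer cell receptor, had the pairs 2057 and 2164 in MOER PPT and 115 and 121 in wild type PPT, with oil pairs of 1448 and 1468 in MOER and 1218 and 1205 in wild type. The sialyltransferase gene St6gal1 differed by -3.06, the thyroid hormone deiodinase gene Dio1 by -2.73, the metalloreductase gene Steap4 by -2.23 and the epidermal growth factor receptor gene Egfr by -2.18. The pseudogene transcript Adh6-ps1 was low in the MOER oil arrays alone, at 5.78 and 5.69, against 534 and 655 in MOER PPT, 301 and 274 in wild type PPT and 479 and 466 in wild type oil arrays.

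**Figure D3:**
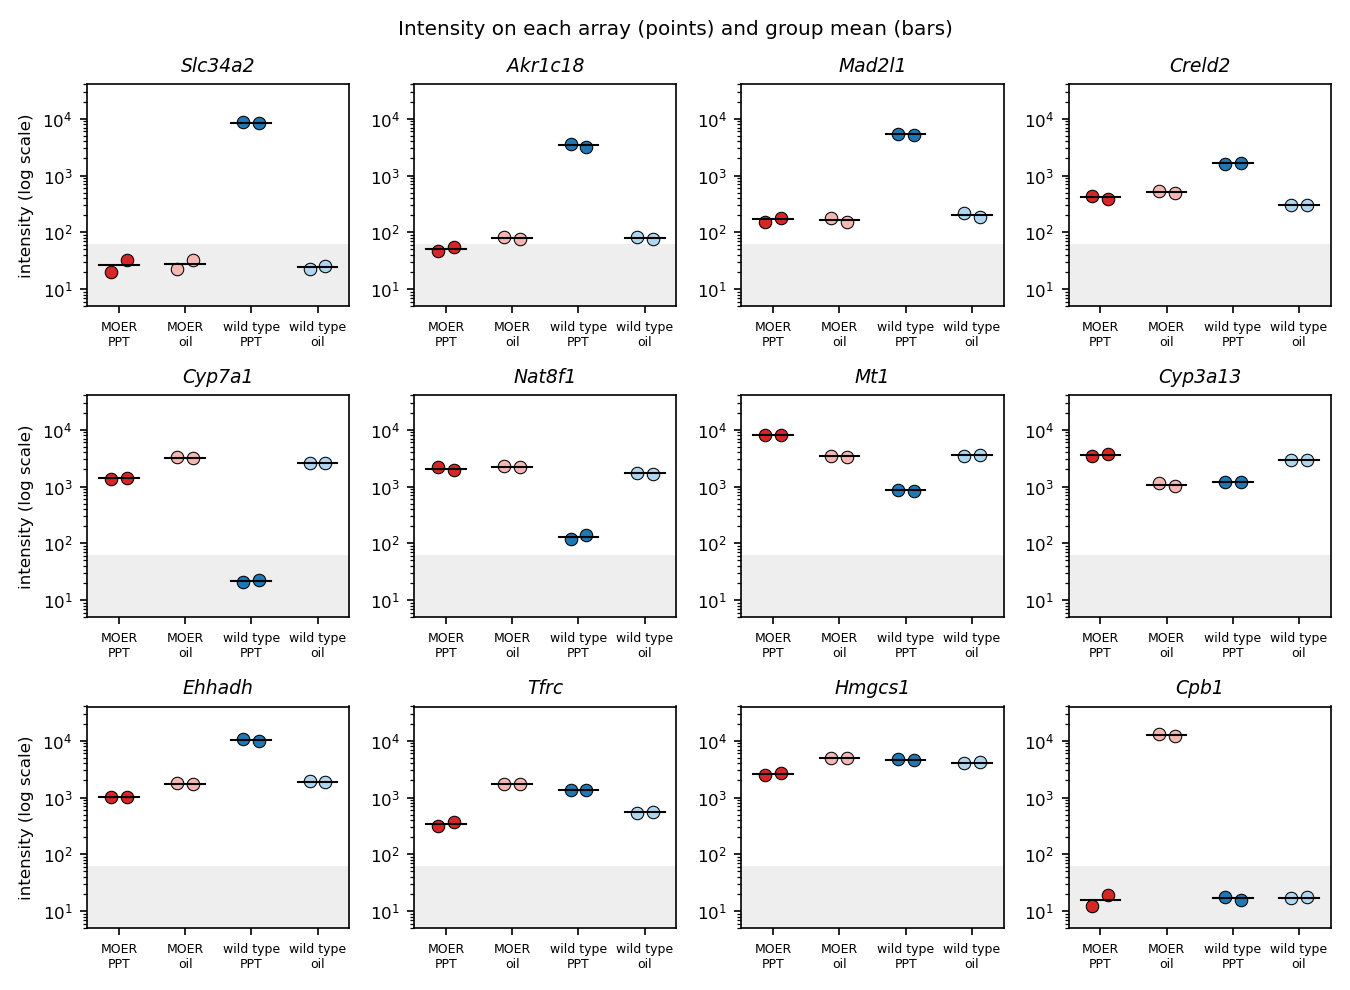
Intensity on a log scale (points, 1 per array) and group mean (bars) for 12 transcripts in MOER PPT, MOER oil, wild type PPT and wild type oil livers (n = 2 each). The shaded band lies below 60.98, the highest 40th percentile of an array. The wild type PPT pair stands apart for Slc34a2, Akr1c18, Mad2l1, Creld2, Cyp7a1 and Nat8f1, the PPT pairs part in opposite directions for Mt1, Ehhadh and Tfrc, and only the MOER oil pair is bright for Cpb1.

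Where MOER moved and wild type did not, the positive side was led by digestive enzymes of the exocrine pancreas. Cpb1, a pancreatic carboxypeptidase, gave 12.6 and 19.3 in MOER PPT, 13211 and 12058 in MOER oil, 18.02 and 15.5 in wild type PPT and 17.2 and 17.6 in wild type oil arrays. The trypsin gene Try4 gave 86.6 and 74.3 in MOER PPT, 25170.4 and 16725 in MOER oil, 64.4 and 43.4 in wild type PPT and 49.6 and 82.4 in wild type oil arrays. The MOER oil pair alone was bright, and the fall in MOER was at least 209-fold for Cpb1. All 15 called members of the 16 measured acinar transcripts had a positive difference (median 3.39). Whether acinar RNA touched other transcripts of the MOER oil arrays was not tested.

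Transcripts called in MOER alone also included ones outside the acinar list. Mme, the membrane peptidase neprilysin, gave 288 and 327 in MOER PPT, 1073 and 965 in MOER oil, 1189 and 1156 in wild type PPT and 1179 and 1174 in wild type oil arrays. Cd163, a scavenger receptor of macrophages, gave 98.1 and 116 in MOER PPT, 294 and 312 in MOER oil, 283 and 289 in wild type PPT and 309 and 312 in wild type oil arrays. For both, the MOER PPT pair alone was low. Rises confined to the MOER PPT pair among the 4 groups were seen for Reg3b and Reg3g, secreted antibacterial lectins, at least 6.45-fold and at least 3.59-fold in MOER (in ERKO PPT arrays Reg3b was at 2745 and 2732), and for Gfra1, a receptor of glial-derived neurotrophic factor, at 1352 and 1326, against 642 and 617 in MOER oil arrays. Il1rn, the interleukin-1 receptor antagonist, differed by -1.27 ± 0.15. Rab30, a Golgi GTPase, differed by -1.34 ± 0.18, but in this gene the MOER oil pair was the low one, at 109 and 96.4, with 265 and 269.6 in MOER PPT, 246 and 272 in wild type PPT and 279 and 270.4 in wild type oil arrays.

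Some transcripts rose or fell in both genotypes and further in MOER. Sult1e1, the oestrogen sulfotransferase, gave 1089.7 and 1336 in MOER PPT, 133 and 109.9 in MOER oil, 244 and 219 in wild type PPT and 119 and 130.2 in wild type oil arrays. Cxcl1, a neutrophil-attracting chemokine, gave 1901 and 1864 in MOER PPT, 275 and 325 in MOER oil, 375 and 376 in wild type PPT and 239.6 and 279 in wild type oil arrays. The differences were -2.34 ± 0.17 and -2.08 ± 0.16, with -1.59 ± 0.12 for Bcl6, a repressor that growth hormone controls. Cyp4a10 and Cyp4a31, fatty acid hydroxylases and targets of PPAR-alpha, fell by 1.88 and 2.22 in MOER and by 0.86 and 1.12 in wild type on the log2 scale.

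Gene lists give the same contrast by pathway. Over all tested probe sets 10.5% had a positive and 11.1% a negative called difference, and 667 symbols were placed in 35 lists that overlap in part. Of 19119 tested probe sets PPT raised 2827 and lowered 3094 in wild type, 449 and 441 in MOER, and 1812 and 1618 in ERKO. PPT also changed many members of some lists in ERKO. It lowered 17 and raised 3 of 27 coagulation and complement genes there, 14 and 2 of 22 bile acid and sterol disposal genes, and 10 and 3 of 17 clock genes. It lowered 9 of 16 drug metabolism and 7 of 13 urea cycle genes in ERKO and raised none. In the list of fatty acid oxidation and PPAR-alpha targets it lowered 17 and raised 1 of 23 in ERKO. It lowered 13 of 19 female-biased and 11 of 18 fatty acid synthesis genes there and raised none. Of 19 male-biased genes it raised 12 and lowered 2. Of 22 chaperone genes it lowered 6 and raised 4. Because the lists were drawn up with earlier results of these data known, their counts are a description and carry no test of their own.

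**Figure D4:**
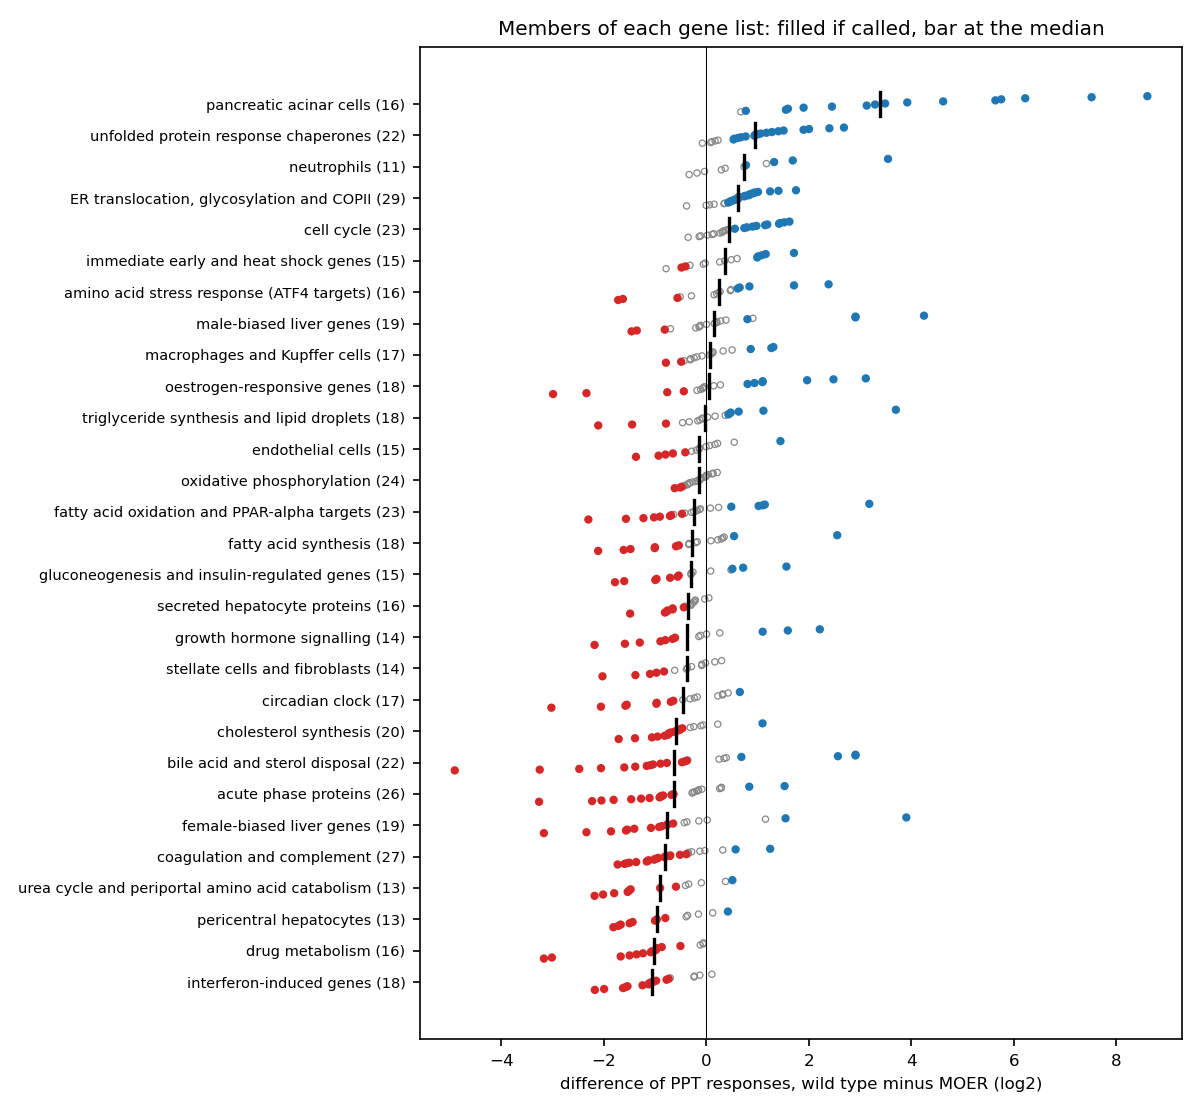
Each point is the log2 difference of PPT responses, wild type minus MOER, of a list member, filled where called (blue positive, red negative) and open where not. Bars mark list medians, and the number of measured members stands after each name. Medians run from -1.06 for interferon-induced genes to 0.94 for unfolded protein response chaperones and 3.39 for the acinar transcripts, against 0.01 over all tested probe sets.

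Cholesterol synthesis genes were mostly lowered by PPT in both genotypes, and most of them further in wild type. PPT lowered 14 members in MOER and 18 in wild type and raised none in either. Of 20 measured members 1 had a positive and 14 a negative called difference, with a median of -0.60. The median change was -0.59 in MOER and -1.16 in wild type. Nsdhl, a sterol dehydrogenase, gave 1184 and 1168 in MOER PPT, 1555 and 1513 in MOER oil, 295 and 304 in wild type PPT and 1296 and 1359.99 in wild type oil arrays. Dhcr7, the last reductase of one branch, differed by -1.39 ± 0.12, and Insig1, which retains the SREBP transcription factors in the endoplasmic reticulum, by -1.06 ± 0.15. The changes of Mvd, Lss, Idi1 and Cyp51 were called in both genotypes and their differences were not, at 0.22 ± 0.15, -0.06 ± 0.14, -0.25 ± 0.14 and -0.32 ± 0.15. Hmgcs1, the synthase that makes hydroxymethylglutaryl-CoA, went against its list. It gave 2534 and 2699 in MOER PPT, 4987 and 4911 in MOER oil, 4728 and 4584 in wild type PPT and 4074 and 4144 in wild type oil arrays, so that only the MOER PPT pair was low. The sterol regulatory element, spelled ATCAC, then 1 base, then CCAC, was in 0 of 16 promoters of this list (250 bases before to 50 after the gene start) and in 77 of 32851 promoters (0.234%).

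Fatty acid synthesis genes were split. Of 18 measured, 2 had a positive and 7 a negative called difference (median -0.27). Scd1, the main stearoyl-CoA desaturase of liver, gave 6707 and 7074 in MOER PPT, 8280.3 and 8210.5 in MOER oil, 2407 and 2236 in wild type PPT and 7673 and 7908 in wild type oil arrays. Acss2, an acetyl-CoA synthetase, changed by -0.91 in MOER and -3.02 in wild type, and the desaturase gene Fads1 by -0.25 and -1.87. Srebf1, which encodes SREBP-1, fell in both without a called difference, -1.04 in MOER and -1.38 in wild type (difference -0.34 ± 0.17, limma, adjusted p = 0.205). The 2 positive members were Thrsp, described above, which fell in MOER and rose in wild type, and Fasn, the fatty acid synthase gene, with a difference of 0.54. The ERKO response of Srebf1 was -0.94, also called.

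Among triglyceride and lipid droplet genes 6 of 18 had a positive and 3 a negative called difference (median -0.03). Cidec, a protein that fuses lipid droplets, was dim in every group except wild type PPT, at 519 and 461, a rise of at least 9.1-fold. Dgat2, the last acyltransferase of triglyceride synthesis, gave 1445 and 1429.6 in MOER PPT, 1698 and 1663 in MOER oil, 3597 and 3687 in wild type PPT and 1979 and 1936 in wild type oil arrays. In the opposite direction, Lpin1, a phosphatidate phosphatase, differed by -2.11 ± 0.17 and Lpin2 by -1.45 ± 0.12. The droplet coat gene Plin2 rose in both without a called difference, by 0.37 in MOER and 0.28 in wild type (-0.08 ± 0.11).

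Fatty acid oxidation and PPAR-alpha targets had 5 positive and 8 negative called differences among 23 (median -0.25). Angptl4, an inhibitor of lipoprotein lipase, gave 499 and 488 in MOER PPT, 166 and 158 in MOER oil, 240.2 and 228 in wild type PPT and 422 and 407 in wild type oil arrays. Cpt1a, which admits fatty acids to mitochondria, rose by 0.56 in MOER and fell by 0.46 in wild type on the log2 scale. The receptor gene Ppara differed by -1.23 ± 0.13. Acot3, an acyl-CoA thioesterase, fell in both, with 60.4 and 82.6 in MOER PPT, 413 and 358 in MOER oil, 16.9 and 21.3 in wild type PPT and 461 and 467 in wild type oil arrays. The wild type PPT pair was dim, and the difference lost its call when values were floored at the 40th percentile. Ehhadh, Cyp4a10 and Cyp4a31, given above, were on the positive side.

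Glucose genes leaned to the negative side, with 3 positive and 7 negative called differences among 15 (median -0.30). G6pc, the glucose-6-phosphatase gene, gave 2696 and 2649.8 in MOER PPT, 2746 and 2799.97 in MOER oil, 844 and 869.7 in wild type PPT and 3085 and 3117 in wild type oil arrays. Ppargc1a, a coactivator of gluconeogenic genes, gave 157 and 181 in MOER PPT, 161 and 142 in MOER oil, 52.7 and 53.8 in wild type PPT and 165 and 186 in wild type oil arrays. For both the wild type PPT pair was the low one, and for Ppargc1a it was dim. Igfbp1, an insulin-repressed binding protein of insulin-like growth factors, rose in both and further in wild type, to 249.6 and 254 in MOER PPT and 1194 and 1159.7 in wild type PPT arrays. Pcx, the pyruvate carboxylase gene, and Insr, the insulin receptor gene, rose in MOER and fell in wild type (difference -0.97 ± 0.14 for Pcx).

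Bile acid and sterol disposal genes held large differences on either side. Of 22 measured, 4 were positive and 14 negative among the called (median -0.62). Cyp8b1, the sterol hydroxylase that makes cholic acid, gave 273 and 256 in MOER PPT, 571 and 506 in MOER oil, 15.99 and 16.8 in wild type PPT and 582 and 606 in wild type oil arrays, the wild type PPT pair being dim. Nr0b2, which encodes the repressor SHP, gave 286 and 229 in MOER PPT, 775 and 679.7 in MOER oil, 1298 and 1339 in wild type PPT and 599 and 595 in wild type oil arrays. It thus fell in MOER and rose in wild type (difference 2.57 ± 0.22, limma, adjusted p = 1.52e-05). Cyp7b1, the oxysterol hydroxylase of the alternative pathway, gave 1058 and 1091 in MOER PPT, 895 and 866 in MOER oil, 3681 and 3689 in wild type PPT and 412 and 367 in wild type oil arrays. Its MOER oil arrays stood above wild type oil, and the wild type PPT pair above all.

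Several transporters of this list fell in wild type and showed no called change in MOER. Among them the phospholipid transporter gene Abcb4 differed by -1.60 ± 0.13, the sterol transporter genes Abcg5 and Abcg8 by -1.04 and -1.39, the organic anion pump gene Abcc2 by -1.16 and the bile salt pump gene Abcb11 by -0.77 ± 0.11. The uptake transporter gene Slco1a4 fell in both, by 0.71 in MOER and 3.19 in wild type on the log2 scale. Slco1a1, a male-biased uptake transporter in mouse liver, fell in MOER PPT to 53.5 and 78.2, against 423 and 343 in MOER oil, and rose in wild type PPT to 456 and 434, against 302 and 269 in wild type oil arrays.

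Lists of the endoplasmic reticulum had positive differences and no negative one among the called. Among 22 measured chaperones and folding factors of the unfolded protein response, 17 had a positive and 0 a negative called difference (median 0.94, MOER median 0.15, wild type median 1.08). Creld2, a secreted folding factor, gave 439.9 and 388 in MOER PPT, 542 and 486 in MOER oil, 1622 and 1683 in wild type PPT and 304 and 304 in wild type oil arrays. Manf, a secreted protein of the stressed endoplasmic reticulum, gave 1106 and 1154 in MOER PPT, 1568 and 1428 in MOER oil, 3944 and 3964 in wild type PPT and 1019.9 and 934 in wild type oil arrays. Hspa5, the central chaperone BiP, gave 5159.5 and 5221 in MOER PPT, 5654 and 5587 in MOER oil, 9712 and 9527 in wild type PPT and 3965 and 3892 in wild type oil arrays. For each of them the wild type PPT pair was above the 6 arrays of the other groups, and the MOER oil pair was above wild type oil. Differences were 2.68 ± 0.16, 2.40 ± 0.13 and 1.40 ± 0.12, in that order (limma, adjusted p = 1.48e-06, 5.93e-07 and 1.66e-05). PPT raised 20 of the list in wild type, and in MOER it raised 5 and lowered 1. Under oil, MOER was called above wild type for 8 of the 22 and below it for 1. Over all tested probe sets these counts were 407 and 675. Whether acinar RNA in the MOER oil arrays contributed to this oil gap was not tested. Members whose differences were not called were P4hb (-0.08 ± 0.12), which rose in both genotypes, and Sel1l, Edem1, Xbp1 and Canx, at 0.08 to 0.23.

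Many of these genes are known targets of the transcription factors ATF6 and XBP1 through the endoplasmic reticulum stress element, spelled CCAAT, then 9 bases, then CCACG. Promoters of RefSeq genes (GRCm38.p6, 250 bases before to 50 after the gene start) were searched for it on both strands. It was found in 9 of 20 promoters of chaperone genes (45%), in 39 of 32851 promoters of the table (0.119%) and in 17 of 11084 tested genes. Among genes with a called positive difference 9 of 1265 held it, and 2 of 1399 with a negative one. Most of those 9 are chaperone genes of the same list, so these counts largely restate it and are no separate support. The matches are shown 5′ to 3′ with 10 bases on either side, because they are letters that many of the chaperone genes share. Capitals mark the CCAAT and CCACG parts.
Hspa5 (chr2:34772015-34772053, + strand): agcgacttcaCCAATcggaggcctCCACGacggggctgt
Hsp90b1 (chr10:86705628-86705666, - strand): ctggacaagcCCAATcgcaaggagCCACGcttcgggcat
Hsp90b1, second match (chr10:86705523-86705561, + strand): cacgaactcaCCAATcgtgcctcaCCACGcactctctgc
Pdia6 (chr12:17266481-17266519, + strand): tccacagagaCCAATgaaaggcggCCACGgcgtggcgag
Calr (chr8:84847065-84847103, + strand): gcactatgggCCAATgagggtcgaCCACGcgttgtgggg
Canx (chr11:50325790-50325828, - strand): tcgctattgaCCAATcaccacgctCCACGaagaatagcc
Dnajc3 (chr14:118937817-118937855, + strand): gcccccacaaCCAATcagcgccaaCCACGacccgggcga
Creld2 (chr15:88819510-88819548, - strand): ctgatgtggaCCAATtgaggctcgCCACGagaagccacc
Derl3 (chr10:75893232-75893270, - strand): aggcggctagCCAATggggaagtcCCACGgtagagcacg
Syvn1 (chr19:6046522-6046560, + strand): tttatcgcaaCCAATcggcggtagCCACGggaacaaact

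The element lay 44 to 212 bases before the gene start, in either orientation to the gene, and Hsp90b1 held one match in each orientation. Of these 9 genes, 8 had a called difference, from 0.67 for Calr to 2.68 for Creld2, and Canx was not called at 0.23 ± 0.12 (limma, adjusted p = 0.245). Genes without a match also had large differences, such as Manf, Dnajb9 (2.00 ± 0.19) and Sdf2l1 (1.90 ± 0.14). A match is a description of letters and not a measured binding site. The whole promoter window of Creld2, the member with the largest difference, is printed on the gene's strand (chr15:88819396-88819695), where capitals mark the element read on the opposite strand.
Creld2 promoter: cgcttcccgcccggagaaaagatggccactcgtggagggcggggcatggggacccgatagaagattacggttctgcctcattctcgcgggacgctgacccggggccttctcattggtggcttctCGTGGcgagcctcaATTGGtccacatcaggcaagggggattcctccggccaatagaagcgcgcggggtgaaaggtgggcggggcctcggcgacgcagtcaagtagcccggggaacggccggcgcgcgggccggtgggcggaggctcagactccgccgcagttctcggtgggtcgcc

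**Figure D5:**
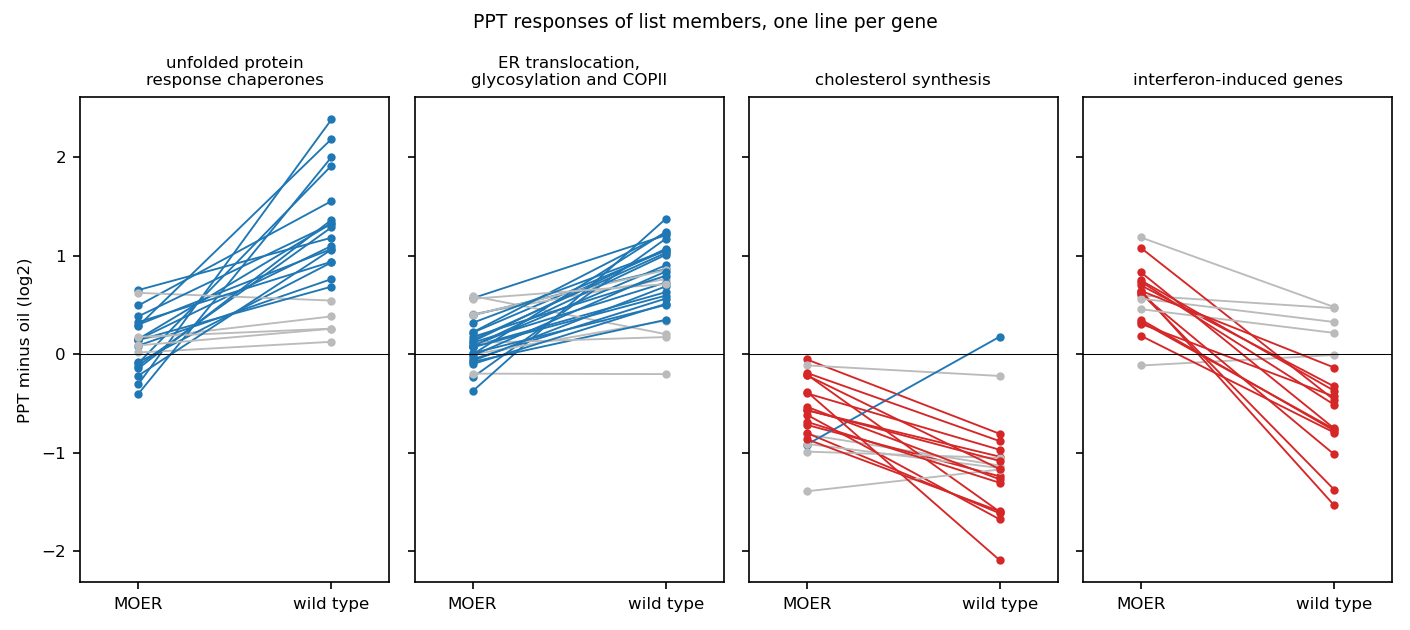
Log2 change of PPT over oil in MOER and in wild type liver for members of 4 lists, with 1 line per gene (coloured where the difference is called, blue positive, red negative, grey not called). Chaperone and secretory pathway genes are raised for 20 of 22 and 26 of 29 members in wild type and for 5 of each list in MOER, most cholesterol synthesis genes are below 0 in both with Hmgcs1 as the 1 rising line whose difference is called, and interferon-induced genes lie mostly above 0 in MOER and below it in wild type.

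The machinery that brings proteins into the endoplasmic reticulum and out of it had positive differences as well. Of 29 measured genes 22 had a positive and 0 a negative called difference (median 0.62). Sec23b, a coat subunit of export vesicles, gave 487 and 501 in MOER PPT, 643 and 647 in MOER oil, 1179 and 1178 in wild type PPT and 441 and 449 in wild type oil arrays. Ssr2, a subunit of the translocon-associated complex, gave 1521 and 1480.4 in MOER PPT, 1524 and 1481 in MOER oil, 3391 and 3269 in wild type PPT and 1400.1 and 1396 in wild type oil arrays. The wild type PPT pair was highest for each. Under oil, MOER was called above wild type for 4 of the 29 and below it for 0. Ostc, of the oligosaccharyltransferase, differed by 1.41 ± 0.13, and was also called in ERKO at 0.75. Rpn2 was the member furthest to the negative side, at -0.39 ± 0.13, not called.

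Targets of ATF4, the transcription factor of the amino acid stress response, were mixed, with 5 positive and 3 negative of 16. Asns, asparagine synthetase, gave 87.3 and 59.9 in MOER PPT, 151 and 128 in MOER oil, 139.7 and 123 in wild type PPT and 33.2 and 33.3 in wild type oil arrays, so MOER PPT was below MOER oil and wild type oil was dim. Atf3, a stress-induced factor, was dim except in wild type PPT arrays, at 127 and 155, and Ddit3 was at 0.15 ± 0.23, not called. Cth, which makes cysteine from cystathionine, gave 9939 and 10213 in MOER PPT, 11345 and 11689 in MOER oil, 2372 and 2466 in wild type PPT and 8436 and 8758 in wild type oil arrays.

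Cell cycle genes had 11 positive and 0 negative called differences among 23 measured (median 0.43), at low intensities. The positive ones included the helicase subunit genes Mcm2 to Mcm7, Pcna and Top2a, all of DNA replication, and the cyclin genes Ccna2 and Ccne2. Mcm6, a subunit of the replicative helicase, gave 116 and 107 in MOER PPT, 101 and 75.1 in MOER oil, 345 and 347 in wild type PPT and 90.5 and 82.2 in wild type oil arrays. Cdk1, the mitotic kinase, gave 129.7 and 82.7 in MOER PPT, 108 and 111 in MOER oil, 366 and 346 in wild type PPT and 120.2 and 101 in wild type oil arrays. Differences were 1.52 ± 0.27 and 1.62 ± 0.31, and Mcm6 was also called in ERKO at 1.06. The mitotic genes Ccnb2, Cdc20 and Plk1 were not called, with Ccnb2 at -0.36 ± 0.34, Cdc20 at 0.02 ± 0.22 and Plk1 at 0.38 ± 0.27. Genes of DNA replication or of entry into it also went uncalled, with Tk1 at -0.11, E2f1 at -0.14 and Ccne1 at 0.11. Tyms, at 0.31, and Rrm2, at 0.34, were not called either. The calls thus do not part replication from mitosis. The letters TTTGAA of the cell cycle homology region were in 8 of 19 list promoters (42.1%), in 14.6% of promoters of tested genes and in 14.7% of those with a positive called difference. The share was as high in lists of other functions, with 7 of 14 for male-biased liver genes and 7 of 15 for drug metabolism, so the letters do not set this list apart.

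Of the oestrogen-responsive list, 7 members were positive and 4 negative among 18 measured. Myc, a growth-promoting transcription factor, was dim in MOER, at 41.2 and 40.8 with PPT and 41.5 and 45.6 with oil, and reached 226 and 247 in wild type PPT, against 44.3 and 59.4 in wild type oil arrays. Ccnd1, a cyclin of cell cycle entry, gave 247 and 271 in MOER PPT, 267 and 284 in MOER oil, 683 and 644 in wild type PPT and 328 and 315 in wild type oil arrays. Cyp17a1, the steroid hydroxylase and lyase, rose in both genotypes, which differed under oil, with 2449.9 and 2552 in MOER PPT, 222 and 216 in MOER oil, 10535 and 9707 in wild type PPT and 1588 and 1593 in wild type oil arrays. Its log2 rise was the larger in MOER (3.42 in MOER, 2.66 in wild type). The palindromic oestrogen response element, GGTCA, then 3 bases, then TGACC, was in 3 of 11084 promoters of tested genes and in 0 of those with a called difference. The letters bear on this window alone. Apoa4, Lifr, Serpina6 and Sult1e1 are members given above.

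Genes of growth hormone signalling had 3 positive and 7 negative called differences among 14 (median -0.38). Socs2, a feedback inhibitor that growth hormone induces, gave 85.7 and 107 in MOER PPT, 315 and 288 in MOER oil, 643 and 681 in wild type PPT and 433 and 368 in wild type oil arrays. Cish, a related inhibitor, was dim among the 4 groups in MOER PPT arrays alone and lost its call when values were floored at the 40th percentile, at 29.4 and 25.8, against 78.3 and 70.4 in MOER oil, 119 and 123 in wild type PPT and 116 and 117 in wild type oil arrays. Stat5a, a signal transducer of this pathway, gave 128 and 141 in MOER PPT, 121 and 129 in MOER oil, 482 and 465 in wild type PPT and 139 and 135 in wild type oil arrays. For Socs2 the MOER PPT pair was the lowest and the wild type PPT pair the highest. For Cish the MOER PPT pair was low, and for Stat5a the wild type PPT pair was high. Bcl6, described above, rose further in MOER, and the receptor gene Ghr (0.26 ± 0.13) and Stat5b (0.00 ± 0.14) were not called.

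Female-biased liver genes leaned to the negative side, with 2 positive and 12 negative among 19 (median -0.77), while male-biased genes had 4 and 3 of 19 (median 0.15). After PPT the female-biased list had a median log2 change of -0.87 for wild type, -0.51 for MOER and -0.83 for ERKO livers. Wild type livers had 12 members lowered and 4 raised, MOER livers 9 and 2, and ERKO livers 13 and 0. The list median thus fell in livers without oestrogen receptor alpha too. Cyp2b9, a female-biased cytochrome P450, gave 4507 and 4582 in MOER PPT, 7218 and 6827 in MOER oil, 1402 and 1362 in wild type PPT and 5839.7 and 5569.6 in wild type oil arrays. Cyp2b13 gave 829.8 and 838 in MOER PPT, 889 and 879.6 in MOER oil, 1018 and 1065 in wild type PPT and 3317 and 3187 in wild type oil arrays. The wild type PPT pair of Cyp2b9 was the low one, whereas the wild type oil pair of Cyp2b13 was the high one. Probe sets of the Cyp2b family may share sequence, and how far signals of its members are separate was not tested. Against its list, Sult3a1, a sulfotransferase, gave 927 and 1206 in MOER PPT, 1838 and 1672 in MOER oil, 6969.9 and 6153 in wild type PPT and 3739.96 and 3646 in wild type oil arrays. Of the male-biased members, Cyp7b1, Slco1a1, Serpina12 and Nudt7 had positive differences, and Selenbp2 a negative one of -1.36 ± 0.13.

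Acute phase genes had 2 positive and 13 negative called differences among 26 (median -0.64). PPT raised 19 members in MOER and lowered none, and in wild type it raised 9 and lowered 8. Steap4 gave 3224 and 3466 in MOER PPT, 1309 and 1354 in MOER oil, 584 and 594 in wild type PPT and 1127 and 1119.5 in wild type oil arrays. Hamp, the iron hormone hepcidin, gave 6244 and 6609.5 in MOER PPT, 3830.4 and 3802 in MOER oil, 2412 and 2530.2 in wild type PPT and 4874 and 5493 in wild type oil arrays. Both rose in MOER and fell in wild type, as did Mt1, Mt2 (-2.05 ± 0.17) and the fibrinogen chain gene Fga (-1.47 ± 0.14). Serpina3n, a protease inhibitor, rose in both and further in MOER, by 1.67 in MOER and 0.75 in wild type. The serum amyloid genes Saa1 and Saa2 went the other way, with differences of 0.84 ± 0.18 and 1.53 ± 0.20. Saa2 gave 17202 and 16917 in MOER PPT, 11546 and 10533 in MOER oil, 13482 and 11919 in wild type PPT and 3054 and 2629.7 in wild type oil arrays, the wild type oil pair being the low one. Their sequences are near-identical, so signal may be shared between them.

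Interferon-induced genes had no positive and 13 negative called differences among 18 measured (median -1.06). PPT raised 12 of them in MOER and lowered none, and in wild type it raised 2 and lowered 10. Their median change was 0.62 in MOER and -0.44 in wild type. Ifit1, an antiviral protein, gave 591 and 659 in MOER PPT, 412 and 374 in MOER oil, 180.1 and 178 in wild type PPT and 568 and 529 in wild type oil arrays. Irf7, the transcription factor that amplifies interferon genes, gave 523 and 497 in MOER PPT, 248 and 218 in MOER oil, 262 and 261 in wild type PPT and 380.3 and 353 in wild type oil arrays. The MOER oil pair was below the wild type oil pair for both, and the PPT pairs were in the reverse order. Bst2 and Oasl1 rose in both genotypes and were not called in the difference.

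Coagulation and complement genes had 2 positive and 18 negative called differences among 27 (median -0.81), and the list of other secreted proteins had 0 and 7 of 16 (median -0.36). C4b, a complement component, gave 1971 and 1948 in MOER PPT, 1284 and 1207 in MOER oil, 728 and 683 in wild type PPT and 1469 and 1557 in wild type oil arrays. Plg, plasminogen, gave 7401 and 7977 in MOER PPT, 6215 and 6309 in MOER oil, 3107 and 3089 in wild type PPT and 6397 and 6697 in wild type oil arrays. F11, coagulation factor XI, went the other way, at 626 and 651 in MOER PPT, 478 and 451 in MOER oil, 1716 and 1753 in wild type PPT and 555 and 499 in wild type oil arrays. Fetub, a fetuin, differed by -1.49 ± 0.13, and Vtn, vitronectin, by -0.81 ± 0.14.

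Drug metabolism genes had no positive and 13 negative called differences among 16 (median -1.03), and genes of pericentral hepatocytes 1 and 8 of 13 (median -0.97), with members in common. Cyp2e1, an alcohol-oxidising cytochrome P450, gave 12202 and 12984 in MOER PPT, 12980.5 and 12262 in MOER oil, 4476 and 4417 in wild type PPT and 12584 and 12659.7 in wild type oil arrays. Glul, the pericentral glutamine synthetase, gave 4728 and 5173 in MOER PPT, 4771 and 4397 in MOER oil, 1408 and 1336 in wild type PPT and 4493 and 4523 in wild type oil arrays. Genes of the periportal side were negative as well: 8 of 13 urea cycle and amino acid catabolism genes were negative and 1 positive (median -0.90). Cps1, the entry enzyme of the urea cycle, gave 8674 and 9656 in MOER PPT, 8914 and 9076 in MOER oil, 1936 and 1987 in wild type PPT and 7639 and 8060.1 in wild type oil arrays. Arg1, the last enzyme of the cycle, was not called at 0.37 ± 0.14.

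Circadian clock genes had 1 positive and 8 negative called differences among 17 (median -0.46). Dbp, a clock output factor, gave 499.6 and 436 in MOER PPT, 205 and 240.2 in MOER oil, 219.6 and 235 in wild type PPT and 474 and 494 in wild type oil arrays. Nr1d1, the repressor REV-ERB-alpha, differed by -1.58 ± 0.13, and Bhlhe40, another repressor of clock genes, by -3.03 ± 0.23. Arntl, the positive clock factor of opposite phase, was not called in the difference (0.32 ± 0.12), and no source used here gives the time of day of collection. Immediate early and heat shock genes, which can move with handling, had 5 positive and 2 negative called differences among 15. The heat shock genes Hsp90aa1 and Hsph1 (0.99 ± 0.13 and 1.16 ± 0.18) were among the positive ones. Oxidative phosphorylation genes had 0 positive and 3 negative of 24 (median -0.15).

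Among macrophage and Kupffer cell genes 3 were positive and 2 negative of 17, with a list median of 0.06. Timd4, a receptor for dying cells, was at 1.31 ± 0.24, and the negative ones were Mpeg1 at -0.79 and Clec4f at -0.49. Marco, a scavenger receptor, rose in both, at 335 and 357 in MOER PPT, 72.98 and 51.9 in MOER oil, 969 and 987 in wild type PPT and 134 and 136 in wild type oil arrays. Summed intensities of this list were 22765 to 22883 in MOER PPT, 18551 to 18819 in MOER oil, 19732 to 19983 in wild type PPT and 15829.9 to 16192 in wild type oil arrays. Endothelial genes had 1 positive and 5 negative called differences of 15. Clec4g, a lectin of sinusoidal endothelium, gave 3891 and 4164 in MOER PPT, 3954 and 4075 in MOER oil, 1597 and 1574 in wild type PPT and 4014 and 4240.3 in wild type oil arrays, while Cdh5 and Stab2 of the same cells were not called (-0.01 ± 0.14 and 0.17 ± 0.13). Stellate cell genes had 5 negative of 14, among them Lrat, which stores retinol as esters, at 246 and 263 in MOER PPT, 309.6 and 304 in MOER oil, 85.2 and 103 in wild type PPT and 549 and 491 in wild type oil arrays. Lymphocyte and bile duct genes had no called difference among 10 and 3. Of 11 neutrophil genes 4 were positive, with summed intensities of 11155 to 11356 in MOER PPT, 3437 to 3687 in MOER oil, 8595 to 8761 in wild type PPT and 1257 to 1364 in wild type oil arrays, Lcn2 included. Lcn2 alone, given below, made up most of the sum in MOER PPT, MOER oil and wild type oil arrays. Lcn2 and Prtn3 together made up most of it in wild type PPT arrays, so the sums do not describe the list as a whole. S100a8 was at 252 and 289.9 in MOER PPT, 330.4 and 261 in MOER oil, 140.2 and 161 in wild type PPT and 42.6 and 37.2 in wild type oil arrays. The red blood cell precursor list had 1 positive and 1 negative of 6, fat cells 2 and 2 of 7, skeletal muscle 0 and 1 of 16, and squamous epithelium 2 and 0 of 10. What these cell types contribute to the differences of other genes was not tested.

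For another group of transcripts no difference was called. Of the 5921 probe sets changed by PPT in wild type, 2208 had no called difference, and 199 of these were called in MOER in the same direction as well. Beside the cholesterol genes named above they included Aacs, acetoacetyl-CoA synthetase, at 78.99 and 107 in MOER PPT, 369.9 and 362 in MOER oil, 70.9 and 76.1 in wild type PPT and 293 and 269 in wild type oil arrays (difference 0.09 ± 0.20, limma, adjusted p = 0.829). Lcn2, an iron-siderophore-binding protein of the acute phase, gave 9934 and 9781 in MOER PPT, 2364 and 2289 in MOER oil, 4416 and 4349 in wild type PPT and 875 and 798 in wild type oil arrays, with MOER above wild type under either treatment and a difference of 0.29 ± 0.13. The median standard error of the difference was 0.172, which sets how small a difference these arrays could show.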

How the data were processed

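Whole-liver RNA was hybridised to Affymetrix Mouse Gene 1.0 ST arrays. The deposited values are linear intensities per probe set, and per the labels the authors tested them with Cyber-T. Background correction, summarisation and scaling are not given in the sources used here. Array medians of 77.5 to 85.26 show that scales were already close, so no further normalization was applied. The 28815 probe sets of 12 arrays were read, 16 was added and log2 taken. Those over the 40th percentile of an array on at least 2 of 12 arrays were kept, 19119 in all. A model of 6 group means was fitted with limma 3.58.1 in R 4.3.3, sharing 1 estimate of spread, with eBayes and Benjamini-Hochberg adjustment over all tested probe sets, and was tested on simulated data. The number of arrays limits the precision. The labels do not say that a replicate number marks a shared batch, and same-numbered arrays did not deviate together in every pair of groups, so the model has no block.

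Where several probe sets shared a symbol, the one of highest mean stood for the gene. Named genes are those with 1 symbol, a called difference of at least 2-fold and a group mean of at least 200: in each class and direction those of largest difference, or of lowest p where the largest differences had a dim group, plus the extreme and the opposing members of each list. A few were chosen after their values were seen. Symbols came from GEO's platform table, and promoters from RefSeq (GRCm38.p6). Members and lists were chosen with earlier results of these data known. The ERKO arrays entered the estimate of spread and their own response.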

Additional observations from a re-analysis of the deposited data

Results flagged for a closer look

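The PPT responses of 276 probe sets were called in opposite directions in MOER and wild type, with the difference itself called by limma. An amylase probe set with several symbols, not part of the named comparisons, had an intensity of 1602759 in MOER oil replicate 1. The other MOER oil array also exceeded 65535, the largest value of a 16-bit scan, and these were the 2 values to do so. In the ERKO response, which does not enter the difference, Reg3b rose at least 49-fold and the skeletal muscle list had a median log2 change of 3.90. The causes were not tested.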

How the results depend on the processing

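The count of 4124 called differences was 4000 and 4431 with 1 or 64 added, 3423 without the filter, 4286 with a 60th percentile filter, 4960 after quantile normalization, 5046 after median centring (51.9% of the calls positive, against 48.7%), 4398 with floored values, 4463 with an intensity trend and 5481 with the 8 wild type and MOER arrays alone. Leaving out 1 of these arrays gave 2959 to 3291, and 2569 probe sets were called with the same sign in all 8 such fits. Without ERKO oil replicate 2, chosen after seeing the data, it was 5607. With the thresholds the labels give (unadjusted p under 1e-04 and 2-fold) it was 1134.

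Class counts moved further. The class larger in wild type (136) had 89 without the filter, 226 after quantile normalization, 220 after centring, 232 with the 8 arrays, 262 without ERKO oil replicate 2, and 62 to 93 when 1 array was left out. The opposite class (276) had 504, 451, 515 and 572 under quantile normalization, centring, the 8 arrays and without ERKO oil replicate 2, and 119 to 167 with 1 array left out. The class of MOER alone (162) had 271, 265 and 289 under quantile normalization, the 8 arrays and without ERKO oil replicate 2, and 95 to 165 with 1 array left out. The class larger in MOER (36) had 54 without ERKO oil replicate 2 and 18 to 31 with 1 array left out. The causes were not tested.

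With the replicate number as a block, 4122 were called, 3981 of them shared with the unblocked fit. Deviations of same-numbered arrays correlated at 0.276 to 0.377 between oil groups (ERKO included) and at -0.147 to 0.127 in all other pairs of groups, so the numbers were not taken to pair the arrays, and a shared batch of the oil arrays was not tested. Of 354 called probe sets that were named or listed, 290 kept their call and sign in every refitted setting that held them. Another 64 lost the call in at least 1 such setting, and none changed sign. A probe set that a filter removed was passed over in that setting. The thresholds the labels give were applied to the total count alone and are not part of this tally. The 2 arrays of a group and pooled animals limit what the p-values cover.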
